A study of Mus musculus with 30 samples.

Results

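Retained introns are stretches that stay in a spliced RNA although other copies of the same RNA have them removed. In mouse leukemia cells and normal myeloid progenitors given an inhibitor of the scavenger decapping enzyme Dcps, the deposited junction tables listed 310 such events among 1866 listed junctions. They are every row that the authors classed as intron retention in the 4 tables that set 6 h or 10 h of treatment against 0 h, and so they were chosen by the measured shares and q-values of those tables. CALM/AF10 cells had 107 of 486 rows at 6 h (22.0%) and 106 of 689 at 10 h (15.4%). GMP had 41 of 291 rows at 6 h (14.1%) and 56 of 400 at 10 h (14%). The 310 rows stood for 243 distinct exon-intron boundaries and were assigned to 225 introns. No assigned intron had both boundaries listed in the same comparison, and 22 of the 225 had both listed over the 4 comparisons. A row therefore shows reads at 1 end of an intron and not that the whole intron was kept.

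Dcps removes the cap left on short RNA fragments after decay from the far end, and so clears cap remnants from the cell. In the nucleus the cap of a new transcript is held by the cap-binding complex, which works with partners such as Srrt in splicing, export and decay, and it is known above all for helping the removal of the intron nearest the cap. A transcript that keeps an intron often meets a stop codon there and is destroyed by nonsense-mediated decay once translated, while some introns are instead held back in the nucleus.

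The time course used C57BL/6 mouse cells. CALM/AF10 cells are an acute myeloid leukemia carrying the CALM/AF10 fusion, and GMP are granulocyte-macrophage progenitors from normal bone marrow. RNA was taken before (0 h) and 6 h and 10 h after RG3039, a Dcps inhibitor, at 1 µM per the file headers, with 3 samples in each of the 6 groups. In the 12 further samples, 2 CALM/AF10 and 2 MLL/AF9 leukemia lines with 3 samples each, the labels give no treatment time. No group of vehicle-treated cells at 6 h or 10 h was analysed here, so time in culture and inhibitor cannot be told apart, and nothing in the labels says whether the 3 samples of a group were separate cultures, so p-values measure the spread between these samples, which may be technical. Both times were compared with the same 0 h samples.

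The labels held against the markers. Hoxa5, Hoxa7, Hoxa9, Hoxa10 and Meis1, genes that mark this leukemia, together reached 382 to 395 TPM (a transcript level scaled for length and for the library's total) in the 0 h leukemia samples and 60.6 to 64.0 TPM in 0 h GMP. The 8 GMP genes, led by Mpo and Elane, added up to 20254 to 21222 TPM in 0 h GMP, 12331 to 12940 TPM at 6 h and 10123 to 10644 TPM at 10 h. Leukemia cells expressed them too, at 6455 to 6953 TPM at 0 h, 6501 to 6669 TPM at 6 h and 7117 to 7375 TPM at 10 h. The 5 macrophage genes were at 144 to 166 TPM in 0 h leukemia cells and 1.70 to 3.01 TPM in 0 h GMP, and reached 9.56 to 10.6 TPM in GMP at 10 h. The 5 B cell genes were at 22.1 to 24.3 TPM in 0 h GMP and 13.0 to 15.1 TPM at 10 h, and at 0.420 to 0.760 TPM in 0 h leukemia cells. The part of these shifts in the GMP results was not tested, and in bulk samples fewer cells of a type and less RNA per cell cannot be told apart. Depth is unknown for the time course, since TPM values add up to a fixed total.

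Each row is 1 boundary of an intron. A boundary shared by several annotated introns was assigned to the shortest, so the ends of 1 intron can stand under different introns, as at Cant1 and Rpl10a. Percent spliced in (PSI) is taken here as the share of reads at a splice site that run on into the intron, as the tables' columns read. PSI and the raw count are the authors' means over a group, so they carry no error of their own, and rows are present only because the authors' q-value was under 0.05 with a positive log ratio, so that after rounding PSI is at least its 0 h value. The values that put a row in the tables are therefore a description and not a test of retention.

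For 42 of the listed introns an annotated exon covers the whole intron, so the sequence could be read from GENCODE M21 transcripts (GRCm38, the mm10 build). All 42 ended in AG and 40 began with GT, their median length was 259.5 nt and their median GC content 53.0%. The 42 include a stretch of 81 nt at chr13:23555423-23555503 that begins with GC and matches no annotated intron. An exon of a protein-coding transcript covers it, and whether it is an intron was not tested. The 10426 annotated introns that a retained-intron transcript of the same gene covers had a median length of 289 nt and a median GC content of 51.0%. Of these 10203 began with GT and 10344 ended in AG. The reading frame was known for 17 of the 42 listed introns, and 15 of these met an in-frame stop codon inside the intron. That share was not computed for other introns, so nothing about the listed ones is read from it. The short introns below are shown because their sequence shows what a retained copy would add to the message, over shifts of PSI that run from wide to 1 point (Rpl10a). Capitals mark the stop codon reached when the exon before is read on in frame, and the Ppan intron has none. They are given 5′ to 3′ in the sense of the gene.
Cirbp intron 2, chr10:80169917-80170015, plus strand: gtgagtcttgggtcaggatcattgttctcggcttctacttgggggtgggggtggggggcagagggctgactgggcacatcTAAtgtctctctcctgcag
Evl intron 11, chr12:108683262-108683347, plus strand: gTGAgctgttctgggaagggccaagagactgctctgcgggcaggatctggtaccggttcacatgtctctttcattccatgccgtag
Fam98c intron 1, chr7:29156031-29156129, minus strand: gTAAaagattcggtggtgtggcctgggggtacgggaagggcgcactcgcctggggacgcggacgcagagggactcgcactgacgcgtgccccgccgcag
Ccnl1 intron 9, chr3:65947790-65947896, minus strand: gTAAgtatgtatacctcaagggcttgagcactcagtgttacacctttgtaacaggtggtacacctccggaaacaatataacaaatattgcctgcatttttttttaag
Rpl10a intron 2, chr17:28328886-28328966, plus strand: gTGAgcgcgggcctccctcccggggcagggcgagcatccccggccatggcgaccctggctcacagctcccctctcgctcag
Ppan intron 1, chr9:20888318-20888406, plus strand: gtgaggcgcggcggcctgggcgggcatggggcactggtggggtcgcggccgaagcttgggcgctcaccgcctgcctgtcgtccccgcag

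Reading into the Evl, Fam98c, Ccnl1 and Rpl10a introns met the stop at base 2 of the intron, so the retained copy would end at the splice site itself. In Cirbp, which encodes a cold-inducible RNA-binding protein, the stop lay at base 81 of 99.

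Retained introns outnumbered their opposite in leukemia cells and not in GMP. The opposite class, introns removed more often after treatment, held 31 rows at 6 h and 81 at 10 h in CALM/AF10 cells, and 72 and 84 rows in GMP. An annotated gene on the opposite strand covers 25, 20, 7 and 14 of the retained boundaries, and the counting is not stated to use strand, so reads of such pairs cannot be told apart. Across the retained rows the median PSI was 13% at 0 h and 40% at 6 h in CALM/AF10 cells, and 13% and 35% for the rows listed at 10 h. In GMP it was 10% and 37% for the 6 h rows and 9.5% and 33.5% for the 10 h rows. PSI was higher by 30 points or more in 27, 24, 10 and 10 rows of the 4 tables in that order, and by 2 points or less in 7, 8, 9 and 21. The median of the authors' mean raw count was 26 at 0 h and 82 at 6 h in CALM/AF10 cells, and 79.5 and 211.5 in the GMP rows of 10 h. The mean raw count was lower after treatment than at 0 h in 4, 0, 4 and 1 rows of the 4 tables.

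**Figure D1:**
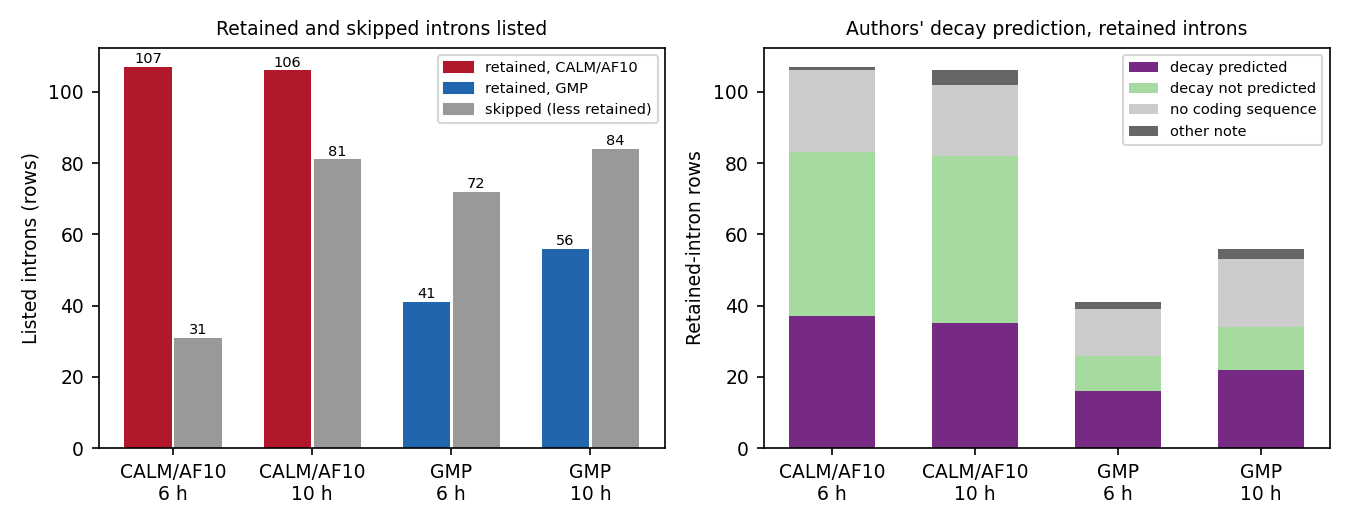
Number of listed introns of each class in the 4 comparisons (left) and the authors' decay prediction for the retained ones (right), where both vertical axes count rows. Retained introns outnumbered skipped ones in CALM/AF10 cells (107 against 31 at 6 h) and were fewer than them in GMP (41 against 72 at 6 h).

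In leukemia cells most of the retained introns that could be placed were first introns, the ones nearest the cap. Introns were placed in the annotated protein-coding transcript with the most exons that holds them. In CALM/AF10 cells, 61 of 82 annotated retained introns were first introns at 6 h (74.4%, 95% exact binomial interval 63.6 to 83.4) and 60 of 78 at 10 h (76.9%, 66.0 to 85.7). Over the introns of the same transcripts, first introns made up 11.4% and 13.0%, and over all annotated introns of protein-coding transcripts 16.1%. The count in GMP was 14 of 32 at 6 h (43.8%, 26.4 to 62.3) and 14 of 38 at 10 h (36.8%, 21.8 to 54.0). Among transcripts with more than 1 intron it was 13 of 31 (41.9%) and 12 of 36 (33.3%), beside 12.6% and 12.4% of all their introns. The intervals cover counting error only, and introns of 1 gene are not independent.

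The same lean was seen in introns removed more often after treatment. There first introns made up 22 of 28 (78.6%) at 6 h and 33 of 73 (45.2%) at 10 h in CALM/AF10 cells, and 37 of 69 (53.6%) and 32 of 78 (41.0%) in GMP. Among the 5′ boundaries of annotated introns, 30 of 46 belonged to first introns in CALM/AF10 cells at 6 h, and among the 3′ boundaries 31 of 36. In 13 of those 31 another annotated exon reaches over the boundary but not the whole intron, and reads of such an exon cannot be told apart from retention there. Without all rows of that kind the share of retained introns was 70.5% at 6 h and 77.9% at 10 h in CALM/AF10 cells. In GMP it was 42.3% at 6 h and 25.8% at 10 h.

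**Figure D2:**
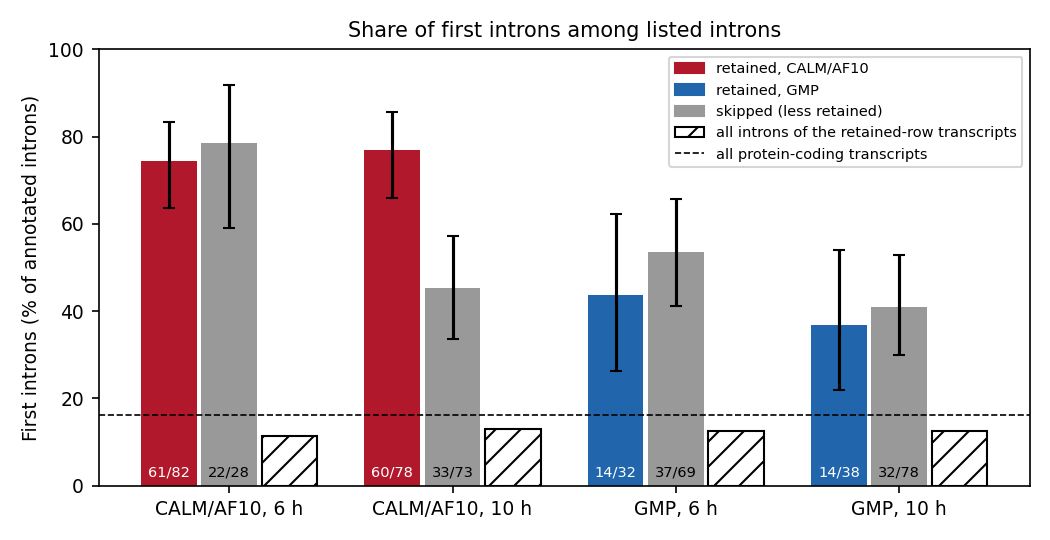
Share of first introns (vertical axis, percent of annotated introns) among retained introns (colored), introns skipped more often (grey) and all introns of the transcripts that hold the retained ones (hatched), in the 4 comparisons. Hatched bars leave out transcripts with a single intron, which the other bars include. Bars carry 95% exact binomial intervals and the counts at their foot, and the dashed line is the 16.1% of all protein-coding transcripts.

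Retained introns in leukemia cells were long beside those in GMP. The median length of annotated introns was 1135.5 nt at 6 h and 1060 nt at 10 h in CALM/AF10 cells, and 266.5 nt and 255.5 nt in GMP, where all protein-coding introns have a median of 1446 nt. First introns in CALM/AF10 cells had a median of 1739 nt at 6 h and the others 223 nt. Introns listed as skipped had medians of 159, 143, 258 and 214 nt in the 4 tables.

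The authors gave each row a prediction of nonsense-mediated decay, or a note such as the lack of a coding sequence. Decay was predicted for 37 rows and not for 46 in CALM/AF10 cells at 6 h, and for 35 and 47 at 10 h (44.6% and 42.7% of those with either answer). In GMP it was predicted for 16 and not for 10 at 6 h, and for 22 and 12 at 10 h (61.5% and 64.7%). These shares leave out the 24, 24, 15 and 22 rows with another note, and over all rows they were 34.6% and 33.0% in CALM/AF10 cells and 39.0% and 39.3% in GMP. Of those with either answer, rows at alternative 3′ and 5′ splice sites gave 47.1% and 43.5% in CALM/AF10 cells at 6 h. At 10 h they gave 42.2% and 35.5% there, and in GMP 11.1% and 29.5% at 6 h and 18.4% and 22.6% at 10 h. The other junction classes lay at 22.7% or less in each comparison. Of the distinct boundaries of annotated introns in CALM/AF10 cells, 49 of 54 with predicted decay belonged to an intron within a coding sequence, and 4 of 60 without it did. An intron with both boundaries listed counts for each.

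Factors that process RNA were among the leukemia events. Srrt, the partner of the nuclear cap-binding complex, had 4 retained introns at 6 h in CALM/AF10 cells. The authors' mean PSI was 13% at 0 h and 27% at 6 h at intron 2 of 19, 2% and 14% at intron 10, 4% and 11% at intron 8, and 3% and 12% at intron 18. In that order their mean raw count went from 57 to 66, 5 to 17, 21 to 28 and 12 to 24. Srrt gene level was 73.7, 78.3 and 81.1 TPM at 0 h, 37.9, 43.2 and 43.3 TPM at 6 h, and 46.9, 45.4 and 49.7 TPM at 10 h. Every treated sample was below every 0 h sample, and the level fell by 0.89 ± 0.06 (SE) on the log2(TPM + 1) scale at 6 h (limma adjusted p = 3.48e-05) and by 0.70 ± 0.06 at 10 h (limma adjusted p = 9.8e-05). No intron of Srrt was listed in GMP, where Srrt was 126.7, 130.1 and 118 TPM at 0 h and 97.4, 109.9 and 90.5 TPM at 6 h (it fell by 0.33 ± 0.08, limma adjusted p = 0.00745). At 10 h it was 137.8, 131.0 and 123.6 TPM in GMP, which overlaps 0 h (0.07 ± 0.08, limma adjusted p = 0.52).

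Zc3h4, a zinc finger protein that limits non-coding transcription, had both boundaries of a first intron of 1148 nt listed, at different times. The 3′ boundary was at 60% PSI at 0 h and 82% at 6 h, and the 5′ boundary at 3% at 0 h and 18% at 10 h. Zc3h4 was 32.1, 34.1 and 32.7 TPM at 0 h, 39.95, 41.8 and 39.8 TPM at 6 h and 50.6, 49.3 and 50.2 TPM at 10 h. The 3 groups did not overlap, with rises of 0.29 ± 0.04 and 0.59 ± 0.04 (limma adjusted p = 0.00235 and 2.61e-05).

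Clk2, a kinase of SR splicing factors, showed PSI of 13% at 0 h, 27% at 6 h and 30% at 10 h at the 5′ boundary of its first intron of 1928 nt. Its level was 29.0, 33.8 and 27.5 TPM at 0 h and 39.2, 34.3 and 29.4 TPM at 6 h, groups that overlap (limma adjusted p = 0.323). Cpsf7, a subunit of the cleavage machinery at the poly(A) site, showed 9%, 27% and 27% at 0 h, 6 h and 10 h. Arglu1, a splicing modulator with a known retained intron, was at 29% and 53% at 6 h with the same mean raw count of 284. Its gene level was 62.3, 56.5 and 60.6 TPM at 0 h and 38.4, 39.0 and 40.4 TPM at 6 h, and it fell by 0.59 ± 0.06 (limma adjusted p = 0.000292).

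Dcps itself, the enzyme the inhibitor binds, was among the leukemia events. The 3′ boundary of intron 5 of 5 (chr9:35124845-35126306, minus strand, within the coding sequence) was at 29% PSI at 0 h and 77% at 6 h. The 5′ boundary of the same intron was at 57% at 0 h and 84% at 10 h. The authors' mean raw count went from 10 to 32 at the former and from 32 to 112 at the latter. Dcps was 14.7, 16.7 and 14.9 TPM at 0 h, 19.0, 16.9 and 17.1 TPM at 6 h, and 18.2, 18.3 and 19.9 TPM at 10 h. The change of 0.18 ± 0.07 at 6 h did not pass (limma adjusted p = 0.132) and that of 0.27 ± 0.07 at 10 h did (limma adjusted p = 0.0255). A gene on the opposite strand, 4930581F22Rik, covers both boundaries. No Dcps intron was listed in GMP.

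The widest shifts of PSI in leukemia cells lay in genes of varied function. Mta1, a subunit of the NuRD chromatin complex, had no read into the first intron of 13700 nt at 0 h and a mean raw count of 6 after treatment, and its authors' mean PSI was 46% at 6 h and 21% at 10 h. Mta1 was 35.0, 39.7 and 38.9 TPM at 0 h, 10.9, 11.6 and 11.3 TPM at 6 h and 11.7, 12.1 and 14.7 TPM at 10 h. All treated samples lay below all 0 h samples, and the level fell by 1.66 ± 0.09 at 6 h and fell by 1.497 ± 0.09 at 10 h (limma adjusted p = 5.51e-06 and 6.36e-06). The share thus rests on few reads.

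Lrrc8d, a subunit of the volume-regulated anion channel, had PSI of 13% at 0 h, 66% at 6 h and 67% at 10 h at the 5′ boundary of its first intron of 31144 nt. Its level was 33.8, 37.2 and 33.5 TPM at 0 h, 46.0, 57.1 and 51.0 TPM at 6 h and 50.9, 47.8 and 52.4 TPM at 10 h, higher in every treated sample (0.54 ± 0.08 and 0.52 ± 0.08, limma adjusted p = 0.00196 and 0.00179). Mbtd1, a chromatin reader, was at 17% and 70% at 6 h, with levels of 5.71, 4.69 and 4.84 TPM at 0 h and 4.93, 5.02 and 5.49 TPM at 6 h that overlapped (limma adjusted p = 0.93). A wide shift of PSI thus stood beside lower, higher and overlapping gene levels.

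Keap1, the adaptor that targets the antioxidant factor NRF2 for degradation, showed 40% at 0 h, 79% at 6 h and 75% at 10 h at its first intron of 1036 nt. Its level was 21.2, 22.2 and 22.0 TPM at 0 h, 29.99, 32.7 and 32.2 TPM at 6 h and 35.0, 33.8 and 38.6 TPM at 10 h, rises of 0.52 ± 0.06 and 0.69 ± 0.06 (limma adjusted p = 0.000585 and 7.62e-05). In GMP, where no Keap1 intron was listed, the level was 13.8, 11.6 and 14.4 TPM at 0 h and 23.5, 23.2 and 20.7 TPM at 6 h (0.72 ± 0.10, limma adjusted p = 0.000368). Rhot2, a GTPase of the outer mitochondrial membrane, showed 6% at 0 h, 41% at 6 h and 42% at 10 h at a first intron of 86 nt, and the authors' mean raw count went from 14 to 129 and 140. Its level rose by 0.47 ± 0.06 at 6 h (limma adjusted p = 0.000613).

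Rffl, a ubiquitin ligase, was at 7%, 50% and 51%, and Zdhhc16, a palmitoyltransferase, at 13%, 51% and 59% at 0 h, 6 h and 10 h. Ankrd40 showed both boundaries of its first intron of 5513 nt, the 3′ one at 7% and 51% at 6 h and the 5′ one at 1% and 22% at 10 h. Tnpo2, a nuclear import receptor, was at 32%, 79% and 77% at a boundary whose intron is not annotated in GENCODE M21. Hoxa10, a homeobox factor that marks this leukemia, was at 8% and 18% at 6 h at its single intron. Its level was 103, 105 and 101 TPM at 0 h and 83.6, 84.6 and 85.1 TPM at 6 h (it fell by 0.28 ± 0.07, limma adjusted p = 0.0279).

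Evl, an actin regulator of the Ena/VASP family, held the short intron 11 printed above at 6% and 34% PSI at 6 h, and its first intron was at 7% and 35% at 10 h. Evl was 11.1, 12.1 and 12.1 TPM at 0 h, 5.32, 4.27 and 4.71 TPM at 6 h and 5.78, 6.34 and 6.67 TPM at 10 h, without overlap (falls by 1.15 ± 0.09 and 0.81 ± 0.09, limma adjusted p = 4.37e-05 and 0.000232). Fam98c was at 29%, 56% and 68% at its intron 1. Psme2, a proteasome activator subunit, went from 0% to 11% at 6 h and 9% at 10 h while its level did not pass the test at either time (limma adjusted p = 0.816 and 0.168). Tyrobp, the adaptor of myeloid surface receptors, had 2 neighbouring introns listed at both times, at 7%, 21% and 25% for intron 1 and 7%, 15% and 14% for intron 2.

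Many GMP rows came from a few genes with several listed boundaries, among them Rpl10a, Gas5, Elane, Prtn3 and Mpo. A grouping by role, made after the values were seen, put 12 of 41 rows at 6 h (29.3%) and 15 of 56 at 10 h (26.8%) in ribosome and translation genes, against 4 of 107 (3.74%) and 5 of 106 (4.72%) in CALM/AF10 cells. Genes of the myeloid granule and surface gave 6 of 41 (14.6%) and 15 of 56 (26.8%) rows in GMP, and 5 and 6 rows in CALM/AF10 cells. The genes with a listed intron in GMP had a median 0 h level of 90.9 TPM at 6 h and 233.5 TPM at 10 h, where all tested genes had 7.93 TPM. The leukemia medians were 34.2, 38.3 and 9.27 TPM.

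Rpl10a, a protein of the large ribosomal subunit, had 4 boundaries listed in GMP at both times. The 5′ boundary of intron 3 was at 5% PSI at 0 h, 13% at 6 h and 13% at 10 h, with mean raw counts of 222, 619 and 935. The 5′ boundary of intron 2, printed above, was at 0%, 1% and 1%. Rpl10a was 1455, 1508 and 1281 TPM at 0 h, 1580, 1724 and 1623 TPM at 6 h and 1676, 1610 and 1622 TPM at 10 h in GMP, a rise of 0.22 ± 0.07 at 6 h (limma adjusted p = 0.0262). In CALM/AF10 cells the alternative intron of 93 nt in that gene was at 65%, 83% and 84%.

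Gas5, a non-coding RNA whose introns hold small nucleolar RNAs, had intron 4 at 8% PSI at 0 h, 18% at 6 h and 20% at 10 h in GMP, intron 5 at 3%, 7% and 9%, and intron 6 at 11%, 21% and 19%. Snord78 lies inside intron 6. Gas5 was 981, 965 and 774 TPM at 0 h, 706, 653 and 664 TPM at 6 h and 920.0, 910.2 and 825 TPM at 10 h. It fell by 0.42 ± 0.09 at 6 h (limma adjusted p = 0.00513), and at 10 h the groups overlapped (limma adjusted p = 0.825). The Rpl13a intron that holds Snord33 was at 5%, 12% and 16%, and its gene did not pass at either time (limma adjusted p = 0.864 and 0.172). Of the rows, 1 in CALM/AF10 cells at 6 h and 3 and 5 in GMP lay in an intron with an annotated small nucleolar RNA. Ribosomal protein genes have many near-identical copies, and so their counts are uncertain.

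Granule genes showed many small shifts. In GMP the neutrophil elastase gene Elane and the proteinase 3 gene Prtn3 had 5 boundaries each, and the myeloperoxidase gene Mpo had 4. PSI was at most 4% at all Elane and Mpo boundaries, for example 1% and 4% at intron 4 of Elane at 10 h, and the boundary with the highest PSI was that of Prtn3 at 37%, 40% and 55%. Another annotated exon covers the latter in part. At that Prtn3 boundary the mean raw count was 6337 at 0 h, 4191 at 6 h and 9173 at 10 h, so at 6 h PSI was higher with fewer reads. Mpo was 8087, 7780 and 7764 TPM at 0 h, 4331, 4211 and 4380 TPM at 6 h and 3480, 3176 and 3164 TPM at 10 h. Elane was 6805, 6244 and 7234 TPM at 0 h, 4435, 4445 and 4770 TPM at 6 h and 3436, 3411 and 3416 TPM at 10 h. The treated samples of both genes lay below all 0 h samples (limma adjusted p from 3.17e-07 to 0.000115).

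Wide shifts in GMP lay in genes of varied function. Fam117a was at 13% and 68% at 6 h at the 5′ boundary of its first intron of 26737 nt. Fam117a was 66.3, 61.3 and 57.5 TPM at 0 h, 13.7, 15.0 and 13.1 TPM at 6 h and 9.46, 9.62 and 9.32 TPM at 10 h, falls by 2.07 ± 0.08 and 2.58 ± 0.08 (limma adjusted p = 1.06e-07 and 2.69e-08). In CALM/AF10 cells, where no Fam117a intron was listed, the level was 20.1, 19.3 and 17.5 TPM at 0 h and 2.13, 1.51 and 1.98 TPM at 6 h, and it fell by 2.80 ± 0.11 (limma adjusted p = 1.18e-06).

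Cdkn2c, an inhibitor of cyclin-dependent kinases, was at 15% and 73% at 6 h, with a mean raw count of 16 after treatment. It was 10.4, 10.4 and 10.8 TPM at 0 h and 5.33, 4.86 and 5.54 TPM at 6 h (it fell by 0.89 ± 0.10, limma adjusted p = 0.000115). Ccnl1, a cyclin that works with splicing kinases, held the 107 nt intron printed above at 4% and 36% at 10 h, and was 64.8, 68.6 and 58.3 TPM at 0 h and 32.0, 31.7 and 30.5 TPM at 10 h (it fell by 1.00 ± 0.09, limma adjusted p = 2.15e-05). Srsf2, an SR splicing factor known to control its own splicing, was at 66%, 89% and 86% at its last intron. Its level was 247, 238 and 194 TPM at 0 h, 307, 343 and 351 TPM at 6 h and 415, 335 and 306 TPM at 10 h, higher in every treated sample (limma adjusted p = 0.00536 and 0.00282). The gene Mettl23 lies on the opposite strand there.

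Impdh1, an enzyme of guanine nucleotide synthesis, was at 48% and 91% at 10 h, the adhesion receptor gene Cd97 at 19% and 76%, and the histone demethylase partner Phf21a at 3% and 48% at 6 h. Tor4a was at 19%, 51% and 50% at its single intron, and its level was 19.0, 20.1 and 17.0 TPM at 0 h, 31.6, 39.0 and 37.9 TPM at 6 h and 38.7, 33.2 and 33.5 TPM at 10 h (limma adjusted p = 0.000102 and 0.000117). The highest counts of the GMP tables, up to 20379 reads, lay at unnamed boundaries on chromosome 13 whose PSI barely differed, such as 94% at 0 h and 95% at 10 h. Other high counts there lay within histone genes such as Hist1h3f, at 65% and 66%. Whether these boundaries belong to introns was not tested, and they count among the GMP rows.

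Some boundaries were listed in both cell types. Distinct boundaries listed in both numbered 7, which is 4.09% of those in CALM/AF10 cells and 8.86% of the 79 in GMP. Of the 118 and 41 named genes 5 were in both, which were Cirbp, Elane, Prtn3, Rpl10a and Tfdp1. Cirbp intron 2 was at 3% and 26% in CALM/AF10 cells at 6 h and at 3% and 34% in GMP at 10 h. Cirbp was 17.5, 19.6 and 19.7 TPM at 0 h and 18.4, 18.6 and 17.5 TPM at 6 h in CALM/AF10 cells (limma adjusted p = 0.812), and 18.4, 23.9 and 14.8 TPM at 0 h and 10.5, 10.6 and 10.5 TPM at 10 h in GMP (it fell by 0.78 ± 0.16, limma adjusted p = 0.00311). At Tfdp1, a partner of E2F factors, PSI was 3% and 27% in CALM/AF10 cells at 6 h and 4% and 14% in GMP at 10 h. A boundary missing from a table only did not pass the authors' threshold there. The share of all listed junctions found in both cell types was not computed, so 7 is not read as few or many.

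Nearest to the threshold, the authors' deposited table gave q of 0.0415 for Rplp2 (PSI 1% and 2%) and 0.0381 for Glt8d1 (5% and 43%) in GMP at 6 h. For CALM/AF10 cells the authors' deposited table gave 0.0171 for an unnamed boundary at 30% and 66% and 0.00967 for Rgl2 (14% and 28%) at 6 h, and 0.0216 for an unnamed one at 14% and 35% and 0.0187 for Tnfrsf21 (3% and 8%) at 10 h. For GMP at 10 h the authors' deposited table gave 0.0403 for an unnamed boundary at 38% and 60% and 0.00649 for Yipf2 (25% and 54%). Rows beyond the threshold were not listed.

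Gene levels of the named hosts went both ways. Of 80 tested hosts in CALM/AF10 cells 42 were called at 6 h, 21 higher and 21 lower, where 12.6% of all 12815 genes were called, 5.44% higher and 7.14% lower. At 10 h 39 of 79 were called, 25 higher and 14 lower, where 19.2% of all genes were, 10.5% higher and 8.64% lower. In GMP 18 of 25 were called at 6 h, 8 higher and 10 lower, where 44% of all 14246 genes were, 24.1% higher and 19.9% lower. At 10 h 17 of 27 were called there, 8 higher and 9 lower, where 45.1% of all genes were, 23.7% higher and 21.5% lower. Calls were by limma with Benjamini-Hochberg adjustment over all genes of a table, at 0.05. The rows were listed from these same contrasts, so nothing is read from these shares. The median change of the hosts was 0.02, 0.08, -0.15 and -0.08 on the log2(TPM + 1) scale in the 4 comparisons, and that of all genes -0.02, 0.01, -0.02 and -0.03.

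**Figure D3:**
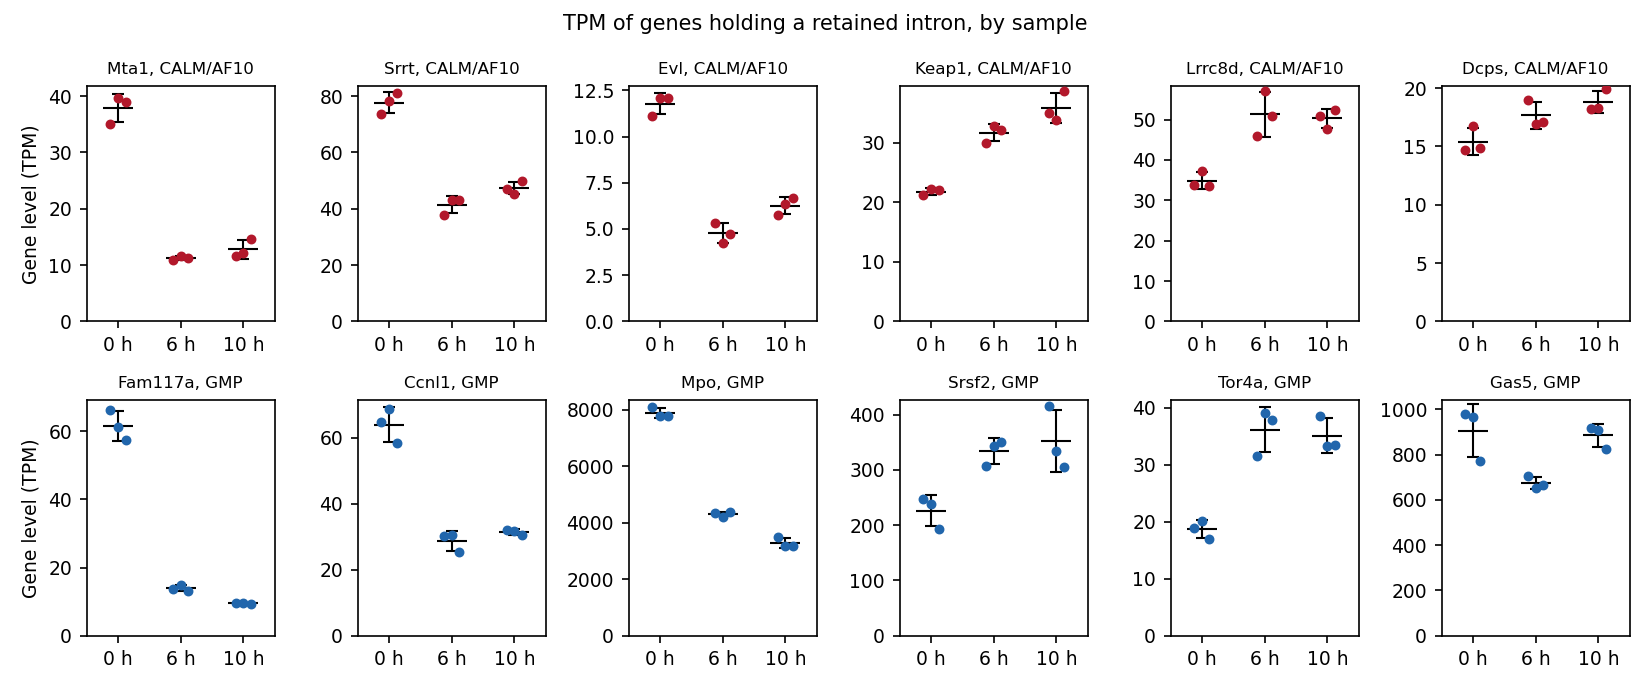
Gene level in TPM (vertical axis, starting at 0) of 6 genes with a retained intron in CALM/AF10 cells (upper) and 6 in GMP (lower) at 0, 6 and 10 h, where points are samples and black bars the mean and SD. Mta1 and Fam117a fell and Keap1 and Tor4a rose after treatment, without overlap between treated and 0 h samples.

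Hosts with predicted decay did not share a direction in leukemia cells. At 6 h 9 of 32 tested hosts with predicted decay were higher and 10 lower, and of 41 without it 10 were higher and 11 lower. At 10 h 9 of 30 with predicted decay were higher and 5 lower there, and of 43 without it 16 were higher and 7 lower. Of all genes, 12.6% and 19.2% were called in CALM/AF10 cells at 6 h and 10 h, and 44% and 45.1% in GMP. In GMP at 6 h 5 of 13 hosts with predicted decay were higher and 6 lower, with a median of 0.02, and of 10 without it 1 was higher and 4 lower, with a median of -0.24. At 10 h 1 of 11 hosts with predicted decay was higher and 8 lower, with a median of -0.78, and of 12 without it 4 were higher and 2 lower, with a median of -0.07. The 8 were Mpo, Elane, Prtn3, Pram1, Ccnl1, Cirbp, Impdh1 and the NF-kB inhibitor gene Nfkbid, and some also hold an intron without predicted decay.

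Hosts listed in a single cell type were also measured in the other. Genes listed in both were left out, so the contrast of the other cell type also had a part in choosing the set. Of the genes listed only in CALM/AF10 cells, 106 were tested in GMP, and 41 were higher and 26 lower at 6 h (63.2% called, where 44% of all genes were), and 47 higher and 27 lower at 10 h (69.8%, where 45.1% were). Their median change in GMP was 0.12 and 0.20. The 4 largest rises there were those of the calcium-binding protein gene S100a4 (2.94 at 6 h and 3.25 at 10 h), Coro2a (2.13 and 1.96), the kinase gene Pim1 (2.07 and 1.59) and the cytokine receptor gene Csf2rb (1.84 and 2.02). The immunoglobulin gene Ighm fell by 1.74 and 2.38. Of the genes listed only in GMP, 33 were tested in CALM/AF10 cells, and 1 was higher and 8 lower at 6 h (27.3%, where 12.6% of all were) and 3 higher and 8 lower at 10 h (33.3%, where 19.2% were). These hosts had median 0 h levels of 32.8 TPM in GMP and 35.3 TPM in CALM/AF10 cells, above the 7.93 and 9.27 TPM of all tested genes, and the part of expression level in these shares was not tested.

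The listed factors of nuclear RNA handling changed in leukemia cells in numbers to be read beside the 12.6% of all genes called at 6 h and 19.2% at 10 h. Of 10 cap-binding complex genes and partners, Srrt fell and Zc3h4 rose at 6 h, and Phax, the export adaptor of small nuclear RNA, also fell at 10 h (by 0.27 ± 0.07, limma adjusted p = 0.0218). Of 16 genes of nonsense-mediated decay and the exon junction complex, 0 rose and 1 fell at 6 h and 1 rose and 0 fell at 10 h. The helicase gene Upf1 fell by 0.25 ± 0.06 at 6 h (limma adjusted p = 0.0276). Of 23 kinases and SR proteins that control detained introns, 0 rose and 5 fell at 6 h, all of them Srsf genes, and 0 rose and 3 fell at 10 h. Srsf4 fell by 0.44 ± 0.09 and 0.38 ± 0.09 (limma adjusted p = 0.00887 and 0.0133). Of 13 tested genes of the minor spliceosome 1 rose and 1 fell at 6 h and 3 rose and 2 fell at 10 h, and Pdcd7 rose by 0.49 ± 0.10 and 0.63 ± 0.10 (limma adjusted p = 0.00936 and 0.00172). Of 11 tested nuclear exosome genes 0 rose and 3 fell at 6 h and none passed at 10 h, and none of 5 intron turnover genes passed at either time.

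In GMP the counts stand beside the 44% of all genes called at 6 h and 45.1% at 10 h. Of the 10 cap-binding genes 5 rose and 2 fell at 6 h and 6 rose and 0 fell at 10 h, where Ncbp1, the large subunit of the complex, rose by 0.49 ± 0.07 and 0.51 ± 0.07 (limma adjusted p = 0.000623 and 0.000426). Of the 11 exosome genes 7 rose at each time, led by the nuclease gene Dis3 at 0.83 ± 0.07 and 0.93 ± 0.07 (limma adjusted p = 2e-05 and 8.97e-06), and 1 and 0 fell. Of the 16 decay genes 8 rose and 3 fell at 6 h and 7 rose and 1 fell at 10 h, and Magohb rose by 1.04 ± 0.13 and 0.91 ± 0.13. Of the 23 detained-intron regulators 8 rose and 7 fell at 6 h and 8 rose and 6 fell at 10 h, and the kinase gene Clk1 fell by 1.82 ± 0.12 and 1.52 ± 0.12 (limma adjusted p = 3.81e-06 and 9.07e-06). Of the 13 minor spliceosome genes 5 rose and 1 fell at 6 h and 6 rose and 2 fell at 10 h. Of the 5 intron turnover genes only Xrn2 passed, at 6 h (it fell by 0.26 ± 0.05, limma adjusted p = 0.00389).

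The 12 samples of the 4 leukemia lines, which played no part in choosing the rows, showed how much RNA of these genes was assigned to transcripts that keep the listed intron. For 27 introns such transcripts could be set apart, and over them the median share of the gene's TPM was 14.5%, with 16 at 10% or more and 2 under 1%. These include protein-coding transcripts that keep the intron, as at Cant1, Srsf2 and Crebzf, and the Cant1 transcript counts for each of its introns. For the 13 introns kept by retained-intron transcripts alone the median was 8.77%, with 6 at 10% or more. Cant1 had shares from 53.6% to 77.1% (median 63.1%), Srsf2 from 41.8% to 52.3% (median 47.6%) and Arglu1 from 23.7% to 42.0% (median 29.0%). PSI at 0 h, on another scale, was 66% for Srsf2 in GMP and 29% for Arglu1 in CALM/AF10 cells. The Cirbp share ran from 0 to 38.1% (median 25.7%), so that single samples differed widely. The share was 0.171% to 3.78% for Rpl13a and 0.109% to 0.783% for Rpl35a, both ribosomal. These values are estimates of how reads split between annotated transcripts and not counts of reads across a boundary.

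**Figure D4:**
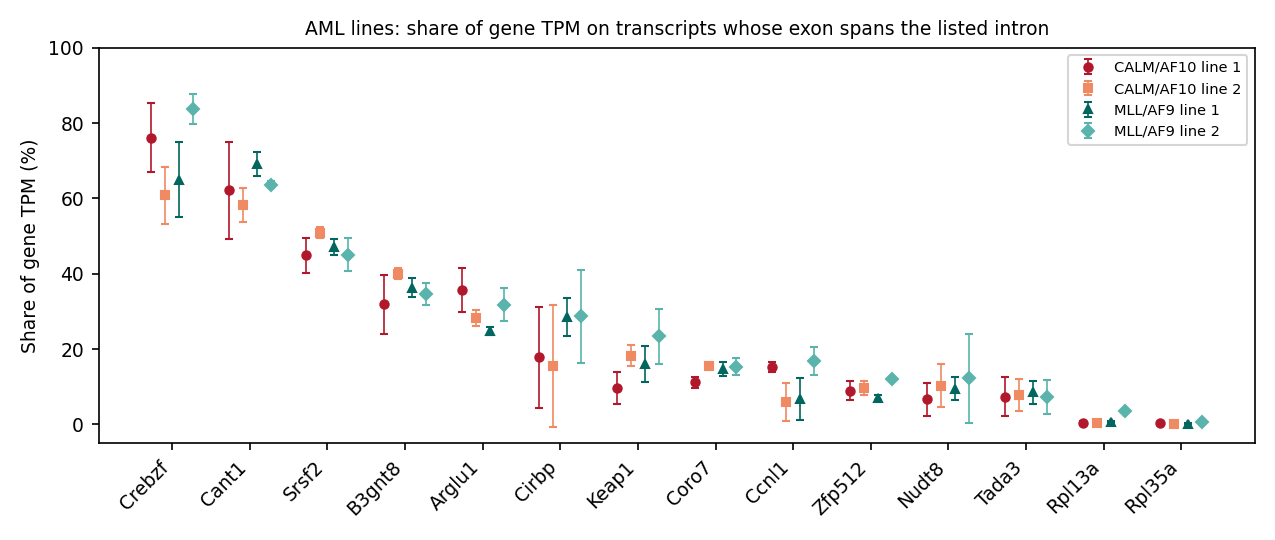
Share of a gene's TPM (vertical axis, percent) on annotated transcripts whose exon spans the listed intron, for 14 genes in the 4 leukemia lines, where markers are means and bars the SD of 3 samples. Crebzf, Cant1 and Srsf2 lie near or above 45% in each line, while Rpl13a and Rpl35a lie near 0.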

How the data were processed

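The authors deposited TPM per gene for 9 CALM/AF10 and 9 GMP samples, 1 table each, and for each of 12 line samples TPM per transcript, per the file headers. The quantifier and the counting of strand are not given in the sources used here. The submitters' processing notes list STAR and mm10 without saying what each served. Per the file headers, the junction tables hold PSI in percent, a log2 ratio of PSI odds, a q-value and a mean raw count, a score rounded to whole numbers. They were used as deposited. TPM columns carry no replicate number, so samples are given in column order.

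Genes with at least 1 TPM in at least 3 samples were fitted as log2(TPM + 1) with limma 3.58.1 in R 4.3.3 (moderated test with a mean-variance trend), 1 fit for each cell type. On data simulated from the CALM/AF10 values, 189 of 200 changed genes and 8 others were called, and from GMP 175 and 9. Every changed gene was shifted up or down by 1 on the log2(TPM + 1) scale and was drawn from genes above a floor of mean level. Recovery of smaller changes and of lower genes was not tested. Introns were matched to GENCODE M21.

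The members and gene lists were chosen with earlier results of these data known. Named rows are those listed in several tables, the 8 largest PSI rises, the 4 highest counts and the 4 smallest q of a table, those nearest the threshold, hosts with the largest changes, and called list members. Other named rows were chosen after their values were seen. The roles were assigned after the values were seen.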

Additional observations from a re-analysis of the deposited data

How the results depend on the processing

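The number of called host genes kept within 1.5 times its value under every alternative that was run: a pseudocount of 0.1, no filter, quantile normalization, median centring, a fit of 2 groups alone, and only rows with the authors' q under 0.01. It ran from 35 to 45, 34 to 40, 15 to 19 and 14 to 21 in CALM/AF10 cells at 6 h and 10 h and in GMP at 6 h and 10 h, and with 1 sample left out from 33 to 43, 32 to 38, 15 to 18 and 13 to 17. Counted as distinct named genes, which merges rows of 1 gene and also drops the 9 and 12 rows without a symbol, the 41 and 56 GMP rows became 26 and 29, and with a PSI at least 5 points higher after treatment, an alternative chosen after seeing the data, they became 27 and 33. The share of first introns moved by less than its interval under both alternatives added after seeing the data. No paired analysis was possible because the TPM columns carry no replicate numbers. Depth is unknown, and events on few reads, such as Mta1 with 6, are the least certain.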
